A study of Mus musculus with 13 samples.

Results

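Peaks bound by Nkx2.2 alone, and carrying raised coverage in the third set of columns that the authors tabulated around Nkx2.2 peaks, numbered 1727 of the 5551 peaks in the Nkx2.2 list. The 1727 peaks were chosen by 2 measured properties. The peak shared no base with a peak of the Nkx6.1 or the Olig2 list, which held for 3867 Nkx2.2 peaks, and its mean coverage within 250 bp of the centre in that set (block 3) of the Nkx2.2 coverage table was 1.5 units or more. They are called raised peaks here, and the 2140 Nkx2.2-only peaks under the limit are called the other Nkx2.2-only peaks. The name Nkx2.2-only refers to these lists alone, and such a peak may share bases with a Gli3 peak.

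Nkx2.2 is a homeodomain transcription factor of the most ventral neural progenitors, which is switched on by high Sonic hedgehog signalling and acts mainly as a repressor of genes of neighbouring progenitor domains. Nkx6.1 (a homeodomain protein) and Olig2 (a basic helix-loop-helix protein) mark overlapping or adjacent ventral domains, and Gli3 is a zinc finger factor of the hedgehog pathway that acts largely as a repressor where the signal is low. Chromatin immunoprecipitation followed by sequencing (ChIP-seq) counts DNA fragments recovered with an antibody, and an input library is sequenced from the same kind of chromatin without immunoprecipitation. Input coverage is not even along a genome.

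The cells were neural progenitors made from mouse embryonic stem cells over 2 days in suspension and 3 further days with 500 nM retinoic acid. The 2 Nkx2.2 ChIP libraries came from ventral progenitors, which also received 160 to 800 nM Smoothened agonist (SAG), an activator of hedgehog signalling. Their line is a derivative of YFP3.1 of mixed background (Swiss Webster, 129 Sv and C57BL6/J) with a FLAG-tagged Gli1 at Rosa26, an allele that the Nkx2.2 inputs share. Nkx6.1 and Olig2 were profiled in ventral progenitors as well, from YFP3.1 in replicate 1 and from the Rosa26-Gli1FLAG derivative in replicate 2. Gli3 was profiled once, in dorsal progenitors made without SAG, through a 3xFLAG-Avi tag at its initiation codon in V6.5 cells of C57BL/6 X 129/sv background. Factor, culture and line therefore cannot be told apart in any comparison of Gli3 with Nkx2.2. Expression was not measured in these files, so the identity of the cells was taken from the labels.

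The data were 4 peak lists, 1 per factor, with 300 bp peaks on build mm9 and no scores, and 3 coverage tables. Each table gave coverage in 3 blocks of columns that name no library. At the 17 places where an Nkx6.1 and an Olig2 peak had the same centre, block 3 of both tables held identical values at every offset, while no other pairing of their blocks did. The 1 sample whose labels name both tables is an input. The labels of Nkx2.2 replicate 2 and of its input name the Nkx2.2 table, and the sources read here do not say which of its blocks is which library. The name of each table holds 3 codes, and the only code that recurs is the last one of the Nkx6.1 and Olig2 tables. Whether the codes follow the order of the blocks is not stated. Block 3, which defines the class, may be the input of Nkx2.2 replicate 2 and not a ChIP library, so its coverage is not read here as binding of any factor. Block 3 of the Nkx2.2 table was not identical with any block of another table at the 6 Nkx2.2 peaks that had the centre of an Nkx6.1 peak and the 11 that had the centre of an Olig2 peak. Depth per library is unknown. Low values, up to 20 steps, were whole multiples of 1 step within a tolerance of 0.02 steps, and the step was 0.245 units in block 3, so the limit of 1.5 units stands for a mean height of 6.13 steps. If a step is 1 read, which the files do not state, the limit is a mean of 6.13 overlapping reads across the window, a low height. The number of reads per peak is not known. Peaks, not cultures, are the units of every test below, and 84 raised peaks shared bases with another raised peak, so p-values speak of these lists and intervals cover counting error only. Shares were set against each other by the two-sided exact test of Fisher, and its p is called the exact p.

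The limit cut through a continuous range of values. Block 3 coverage of raised peaks ran from 1.5 to 10.4 units with a median of 2.2 (quartiles 1.83 and 2.70), against 0 to 1.49 units with a median of 0.839 in the other Nkx2.2-only peaks. These values chose the peaks and are a description. Within 0.1 units of the limit lay 158 raised peaks and 147 of the others. The 3 peaks just inside it, at chr14:56209874-56210173, chr16:93140758-93141057 and chr2:167510659-167510958, all had 1.5 units in block 3, with 10.7, 16.3 and 16.2 units in block 1. The 3 just outside, at chr9:107470887-107471186, chr6:88791760-88792059 and chr14:8935997-8936296, all had 1.49 units in block 3, with 29.9, 15.2 and 53.5 units in block 1. Peaks on either side of the limit thus differed by less than 1 step.

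**Figure D1:**
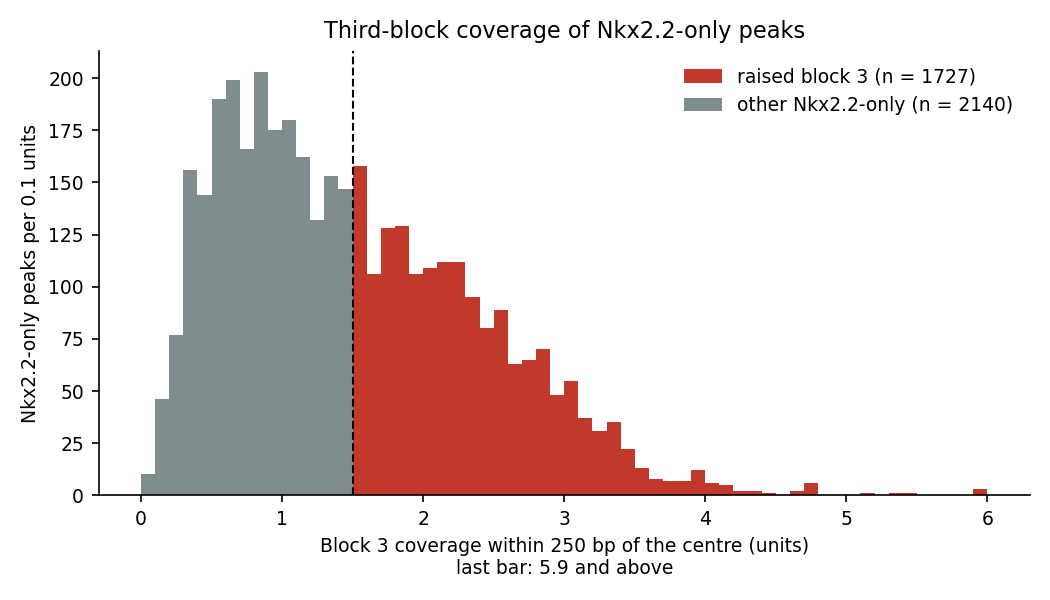
Number of Nkx2.2-only peaks (vertical axis) per 0.1 units of mean block 3 coverage within 250 bp of the centre (horizontal axis), with the limit of 1.5 units dashed. There is no gap at the limit, where bars of 158 raised and 147 other peaks adjoin, the tallest bars stand below it, and the last bar gathers the highest values.

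Around raised peaks, block 3 coverage formed a broad mound centred on the Nkx2.2 peak. Its mean was 2.83 units at the centre, 1.74 and 1.80 units at 250 bp to the left and right, 1.10 and 1.15 units at 500 bp, and 0.711 units in the flank, taken from 1000 bp outwards. Measured midway between centre and flank, the mound was 500 bp wide at raised peaks and narrower at the other Nkx2.2-only peaks. The highest point of block 3 within 500 bp fell within 100 bp of the centre at 55.5% of raised peaks (959 of 1727), against 29.0% of the others. The peaks were chosen on block 3 within 250 bp of the centre, which bears on the place and the width of the mound, so these values are a description and are not set against blocks 1 and 2. Block 3 coverage exceeded 2 times the flank at 1527 raised peaks (88.4%) and also at 523 of the other Nkx2.2-only peaks (24.4%). At the remaining raised peaks the flank was high too or the rise was small.

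Blocks 1 and 2 were not used to split raised peaks from the other Nkx2.2-only peaks. At raised peaks mean coverage was 16.4 times the flank in block 1 and 5.65 times in block 2. In the other Nkx2.2-only peaks it was 19.6 and 8.05 times the flank. Every peak came from the Nkx2.2 list, so a rise at the centre may follow from peak calling and is a description. Block 1 coverage of raised peaks had a median of 15.9 units (lowest 5.42, highest 149), against 17.8 units (4.95 to 489) in the other Nkx2.2-only peaks. Block 2 coverage had a median of 3.67 units (0.209 to 34.6), against 4.20 units (0 to 75.5). The ranges overlapped almost throughout, and raised peaks were on average lower in both blocks. On the log2(coverage + 1) scale the mean was 4.12 ± 0.56 in raised peaks and 4.33 ± 0.73 in the others for block 1 (SD over 1727 and 2140 peaks), a difference of -0.21. For block 2 it was 2.24 ± 0.60 and 2.43 ± 0.92, a difference of -0.19. The two-sided permutation p was 1e-05 for both, the smallest that 100000 resamples can give. With the limit set at 2.0 units the differences shrank to -0.11 and -0.08 but stayed past the threshold (permutation p = 1e-05 and 0.00337). The sources read here do not say how the authors called the peaks, or against which library.

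Almost every Nkx2.2-only peak, raised or not, stood above its surroundings in block 1. Coverage was more than 2 times the flank at 1718 of the 1727 raised peaks (99.5%) in block 1 and at 1593 (92.2%) in block 2. Of the 2140 other Nkx2.2-only peaks, 2118 passed this in block 1 and 1927 in block 2 (odds ratios 1.98, exact p = 0.102, and 1.31, exact p = 0.0175). A rise of more than 4 times the flank in block 2 was less frequent, at 1182 raised peaks (68.4%), against 1572 of the others (73.5%) and 71.2% of all Nkx2.2-only peaks, with an odds ratio of 0.784 (95% interval 0.680 to 0.903, exact p = 6.86e-04). Across raised peaks, the rank correlation of blocks 1 and 2 was 0.57, whereas that of block 3 was 0.09 with block 1 and 0.12 with block 2. In the other Nkx2.2-only peaks the same values were 0.60, -0.10 and -0.11. These correlations describe peaks of 1 table, which share libraries.

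The shape of blocks 1 and 2 also differed at raised peaks. Coverage 200 to 300 bp from the centre (the shoulder) was 17.8% of that within 50 bp of the centre in block 1 at raised peaks, against 11.2% in the others, and 39.8% against 25.5% in block 2. In block 1 the centre itself was lower (34.8 units against 48.7) and the shoulder slightly higher (6.20 units against 5.44). In block 2 the centre was lower too (5.92 units against 9.10), while the shoulder was almost the same (2.36 units against 2.32). The log2 ratio of shoulder to centre, each + 1, was higher in raised peaks by 0.82 in block 1 (-2.47 ± 1.29 against -3.29 ± 1.41, SD) and by 0.47 in block 2 (-0.93 ± 0.75 against -1.40 ± 0.97), each with a permutation p of 1e-05. This measure was chosen after the profiles were seen. Block 3 had its broad mound at the same places, and its part in the higher ratios of shoulder to centre in blocks 1 and 2 was not tested.

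**Figure D2:**
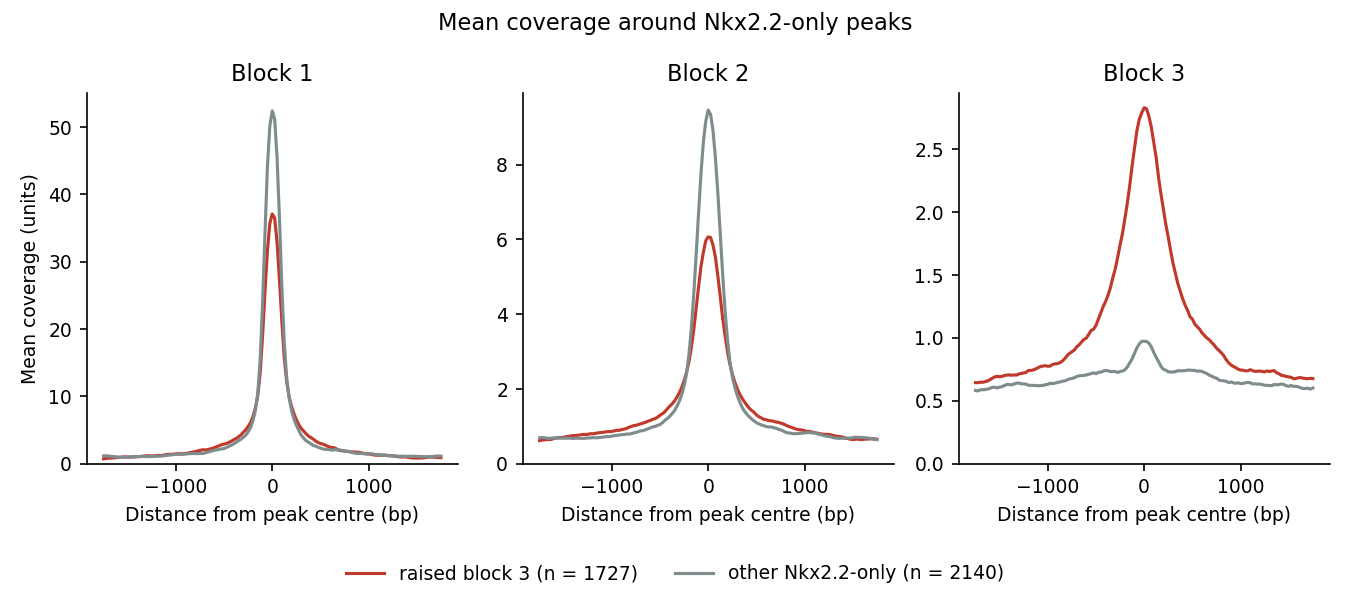
Mean coverage in units (vertical axis, a separate scale per block) by distance from the peak centre in bp, for the 1727 raised peaks and the 2140 other Nkx2.2-only peaks in each block of the Nkx2.2 table. Raised peaks are lower at the centre in blocks 1 and 2 (37.1 against 52.4 units in block 1, 6.07 against 9.46 in block 2) and, by the way they were chosen, higher in block 3 (2.83 against 0.974).

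Of the 5 raised peaks highest in block 1, 3 were also among the first 5 in block 2, and only 1 stood high in block 3. The highest block 1 coverage was at chr10:66391292-66391591, with 149, 34.6 and 2.27 units in blocks 1, 2 and 3, and it was highest in block 2 too. The next was chr2:179991897-179992196, with 136, 31.5 and 2.40 units. At chr9:107355434-107355733 block 1 reached 128 units while block 2 had 13.4 and block 3 had 1.87. These 3 peaks led the class in block 1 and lay between 1.87 and 2.40 units in block 3, near the class median of 2.2. Of the 5 highest peaks in block 1, chr11:105945454-105945753 had the most in block 3 (93.7, 24.1 and 4.77 units), and chr2:178397138-178397437 completed the 5 with 87.3, 16.7 and 2.07 units. None of these 5 shared a base with a Gli3 peak, which only 11.5% of all raised peaks did, so 5 peaks are too few to read this as a trait. By block 2, chr13:28857867-28858166 also ranked among the first 5, with 32.9, 26.4 and 1.51 units.

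The highest block 3 coverage in the class was an isolated value. At chr8:20020267-20020566 it was 10.4 units, with 28.7 in block 1 and 24.0 in block 2, and a Gli3 peak centre lay 23 bp away. The next by block 3 were chr8:73153627-73153926 (6.07 units, and 8.93 in block 1), chr1:90173984-90174283 (6.03 and 46.4), chr2:34627436-34627735 (5.42 and 17.8) and chr15:76342272-76342571 (5.39 and 18.3). At the weak end of block 1 were chr5:138526186-138526485, chr11:115063701-115064000, chr9:92437133-92437432, chr13:24853359-24853658 and chr13:77274647-77274946, with 5.42 to 5.97 units in block 1 and 1.58 to 2.63 in block 3. No raised peak was at 0 in block 1 or block 2. Which genes lie at these places was not analysed here.

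Raised coverage was also found in columns that the choice did not use, those of block 3 in the Olig2 and Nkx6.1 tables. For this, Nkx2.2-only peaks were taken that lay within 1500 bp of an Olig2 or Nkx6.1 peak without touching it, and coverage at the Nkx2.2 peak was read from that neighbour's row. In block 3 of the Olig2 table, 62 raised peaks had a median of 1.79 units (lowest 0.430, highest 3.55), against 0.822 units (0.0747 to 3.29) at 135 of the other Nkx2.2-only peaks. Of the 62 raised peaks, 60 lay above the median of the others, although the ranges overlapped. On the log2(coverage + 1) scale the means were 1.5 ± 0.36 and 0.88 ± 0.34 (SD), a difference of 0.62 (permutation p = 1e-05, adjusted p = 6e-05 over 6 such comparisons).

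In block 3 of the Nkx6.1 table, 14 raised peaks had a median of 1.31 units (0.616 to 3.10), against 0.728 units (0.0373 to 2.04) at 57 of the others. The difference was 0.50 on the log2(coverage + 1) scale (1.31 ± 0.42 against 0.81 ± 0.35, SD; permutation p = 3e-05, adjusted p = 9e-05), and 12 of the 14 lay above the median of the others. Block 3 of the Olig2 and Nkx6.1 tables held identical values wherever centres coincided, and 3 raised peaks were read in both, so these are not separate checks. With 0.1 in place of 1 added to the coverage, the differences were 1.08 for the Olig2 table and 0.97 for the Nkx6.1 table. Over all Nkx2.2-only peaks read this way, the rank correlation of block 3 of the Nkx2.2 table with block 3 of the other table was 0.64 for Olig2 (197 peaks) and 0.57 for Nkx6.1 (71 peaks), and among the raised peaks alone it was 0.35 (62 peaks) and 0.87 (14 peaks), given as a description. The 73 raised peaks with such a neighbour are a small part of the class.

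**Figure D3:**
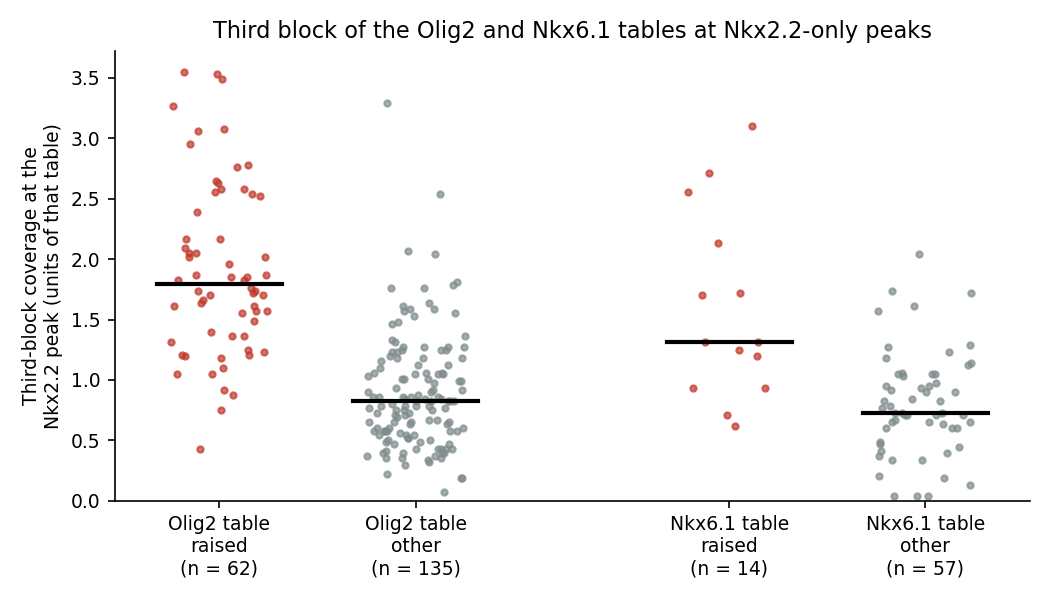
Coverage in block 3 of the Olig2 and Nkx6.1 tables (vertical axis, units of that table) at Nkx2.2-only peaks within 1500 bp of a peak of that table, with 1 point per peak and the median as a line. Raised peaks sit higher in both tables, with medians of 1.79 against 0.822 units in the Olig2 table and 1.31 against 0.728 units in the Nkx6.1 table.

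Blocks 1 and 2 of these tables gave no steady difference. At raised peaks block 1 of the Olig2 table had a median of 2.53 units, against 3.49 units at the others, a difference of -0.39 on the log2(coverage + 1) scale (permutation p = 0.00760, adjusted p = 0.0152). With the neighbouring Olig2 peak at least 600 bp away, so that its centre was farther from the window, the difference was -0.10 (permutation p = 0.452), and without peaks within 1000 bp of any ventral peak it was 0.01. Block 2 of the Olig2 table differed by -0.22 (permutation p = 0.130, adjusted p = 0.195), and by 0.07 and 0.22 under the same exclusions. Blocks 1 and 2 of the Nkx6.1 table differed by 0.04 and -0.14 (permutation p = 0.858 and 0.541, adjusted p = 0.858 and 0.649). These values do not show that Olig2 or Nkx6.1 coverage was alike in both classes.

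Gli3 peaks lay at raised peaks about 3 times as often as at the other Nkx2.2-only peaks. A Gli3 peak shared at least 1 base with 198 of 1727 raised peaks (11.5%, 95% Wilson interval 10.0 to 13.1), against 79 of 2140 others (3.69%, 2.97 to 4.58) and 7.91% of all Nkx2.2 peaks. The odds ratio was 3.38 (2.57 to 4.48, exact p = 1.25e-20). A rise of the Gli3 share with block 3 coverage over the whole Nkx2.2 list was known before these peaks were chosen, so the test is no independent support for it. The Gli3 list came from 1 library, and its own input was not analysed here. Within quartiles of block 1 coverage the Mantel-Haenszel odds ratio was 3.23 (2.47 to 4.23), within quartiles of block 2 it was 3.10 (2.37 to 4.06), and within chromosomes 3.20 (2.43 to 4.20).

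The share was larger in each successive step of block 3 coverage up to 3 units. Among Nkx2.2-only peaks under 0.5 units it was 0.462% (2 of 433), from 0.5 to 1 units 2.47% (23 of 933) and from 1 to 1.5 units 6.98% (54 of 774). Inside the class it was 9.57% (60 of 627) from 1.5 to 2 units, 11.6% (59 of 508) from 2 to 2.5, 13.4% (45 of 335) from 2.5 to 3 and 13.2% (34 of 257) from 3 units upwards. The Wilson intervals of the bins on either side of the limit overlapped (7.51 to 12.1% above it, 5.39 to 8.99% under it), as did those of the 4 upper bins. Median block 1 coverage in the 7 bins lay between 15.0 and 18.9 units with no such order.

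**Figure D4:**
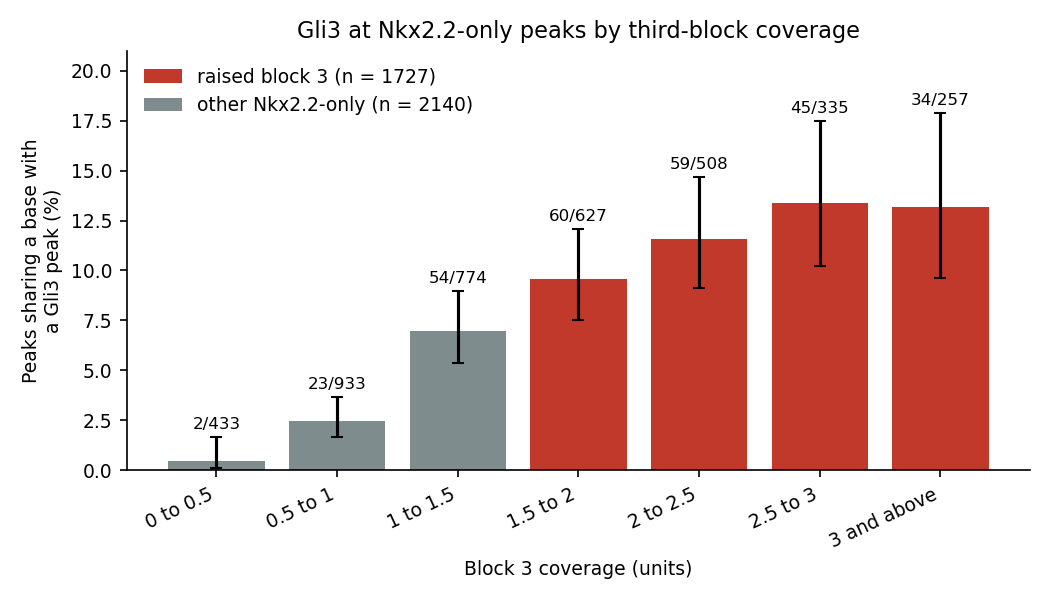
Percent of Nkx2.2-only peaks sharing at least 1 base with a Gli3 peak (vertical axis) by block 3 coverage in units (horizontal axis), with 95% Wilson intervals and the counts above each bar. The share is 0.462% in the lowest bin and 13.4% and 13.2% in the highest 2, and bars of raised peaks begin at 1.5 units.

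Where Gli3 met a raised peak, the centres lay a median of 74.5 bp apart, and within 50 bp at 62 of the 198 (31.3%). At the other Nkx2.2-only peaks with Gli3 the median was 72.0 bp and the share 34.2% (27 of 79). Raised peaks with Gli3 had somewhat higher block 2 coverage than raised peaks without it, with medians of 4.09 and 3.62 units and a difference of 0.18 on the log2(coverage + 1) scale (2.41 ± 0.59 over 198 peaks, 2.22 ± 0.60 over 1529, SD; permutation p = 2e-05, adjusted p = 4e-05 over blocks 1 and 2). Block 1 differed by 0.08, with medians of 16.5 and 15.9 units (permutation p = 0.0745, adjusted p = 0.0745). Block 3 medians, a description, were 2.27 and 2.2 units. By quartile of block 1, from low to high, Gli3 lay at 7.41%, 14.4%, 9.26% and 14.8% of raised peaks, which is no steady order. These comparisons within the class were chosen after the values were seen.

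The raised peaks with Gli3 that were strongest in block 1 lay at chr19:5366627-5366926, with 53.0, 15.9 and 2.05 units in blocks 1, 2 and 3 and the Gli3 centre 1 bp away, and at chr10:80499965-80500264, with 52.9, 9.12 and 4.73 units and 54 bp. Next came chr1:90173984-90174283 (46.4, 7.82 and 6.03 units, 100 bp), chr8:88913858-88914157 (42.0, 16.1 and 2.01 units, 24 bp) and chr19:4163236-4163535 (39.1, 6.94 and 1.69 units, 17 bp). All 5 stayed under the raised peaks without Gli3 that led in block 1. These leaders came from groups of unlike size, 198 peaks with Gli3 and 1529 without it. The block 1 medians of these groups were 16.5 and 15.9 units.

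Chromosome 8 stood out among the raised peaks with Gli3. It held 41 of them, 30.8% of its 133 raised peaks, against 3 of its 94 other Nkx2.2-only peaks (3.19%). Without chromosome 8 the odds ratio was 2.83 (exact p = 1.05e-13). On all 19 autosomes the share with Gli3 was higher in raised peaks than in the others, with the narrowest gap on chromosome 9 (8.08% against 8.03%). On the sex chromosomes no Nkx2.2-only peak met Gli3. From the side of the Gli3 list, 197 of its 1888 peaks (10.4%) lay at raised peaks and 78 (4.13%) at the others. Beyond direct overlap, a Gli3 peak that shared no base lay within 100 kb of 29.0% of raised peaks and of 19.3% of the others (odds ratio 1.70, 1.46 to 1.98, adjusted exact p = 1.09e-11 over 15 comparisons of neighbours).

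Peaks shared with Nkx6.1 or Olig2 gave the same direction by a smaller step. Of 368 co-bound Nkx2.2 peaks with 1.5 units or more in block 3, 14.4% (11.2 to 18.4) met Gli3, against 8.28% (6.91 to 9.90) of 1316 co-bound peaks under the limit, an odds ratio of 1.86 (1.28 to 2.68, exact p = 8.88e-04). The odds ratio in Nkx2.2-only peaks was 1.81 times as large (Breslow-Day chi-square test of equal odds, p = 0.00786). Raised Nkx2.2-only peaks and raised co-bound peaks differed in their Gli3 share by an odds ratio of 0.770 (0.551 to 1.09, exact p = 0.132), an interval that holds both no difference and a lower share in the Nkx2.2-only peaks.

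Raised peaks lay farther from Nkx6.1 and Olig2 than the other Nkx2.2-only peaks did. The choice had removed peaks that touch, and distances beyond that were not part of it. An Nkx6.1 or Olig2 peak centre lay within 10 kb of 239 raised peaks (13.8%), against 503 of the others (23.5%) and 19.2% of all Nkx2.2-only peaks, an odds ratio of 0.523 (0.439 to 0.621, adjusted exact p = 1.66e-13). Median distances were 62.4 kb for raised peaks and 41.1 kb for the others. The same direction held at each range tried, with odds ratios of 0.454 within 1 kb and 0.626 within 100 kb. For Nkx6.1 alone, 3.36% of raised peaks and 9.30% of the others had a peak within 10 kb (odds ratio 0.339, 0.247 to 0.460). For Olig2 alone the numbers were 214 (12.4%) and 428 of 2140 (0.566, 0.471 to 0.678).

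Other Nkx2.2 peaks were not nearer or farther within 10 kb, where the share was 16.3% in both classes (odds ratio 1.00, 0.839 to 1.19, adjusted exact p = 1.00). Within 100 kb another Nkx2.2 peak was present at 59.2% of raised peaks and 52.4% of the others (odds ratio 1.32, 1.16 to 1.5, adjusted exact p = 3.03e-05), and within 1 kb at 9.96% and 7.15% (1.44, 1.14 to 1.82, adjusted exact p = 0.00212). Without peaks that had another Nkx2.2 peak within 1000 bp, the odds ratio within 10 kb was 0.693 (exact p = 0.00305). Raised peaks thus more often had another Nkx2.2 peak within 1 kb and within 100 kb. Among peaks with none within 1 kb, they less often had one within 10 kb. That comparison was added after values were seen, and its p is not adjusted. Another raised peak lay within 10 kb of 189 raised peaks (10.9%).

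The raised peaks were unevenly spread over the chromosomes. Of 21 chromosomes, 4 held a higher share of the raised peaks than of the other Nkx2.2-only peaks (19.0% of those tested) and 4 a lower one (19.0%), with an adjusted exact p under 0.05. The higher ones were chromosome 8, with 7.70% of raised peaks and 4.39% of the others (odds ratio 1.82, 1.37 to 2.41, adjusted exact p = 1.84e-04), chromosome 17 (5.44% and 3.18%, 1.75), chromosome 7 (9.44% and 5.84%, 1.68) and chromosome 11 (9.03% and 6.50%, 1.43). The lower ones were chromosomes 1, 12 and 13, with odds ratios of 0.647, 0.634 and 0.671, and chromosome X. Under the 6 alternative settings tried, 5 to 7 chromosomes passed in place of 8, and the lowest count came with a limit of 2.0 units. Only 1 of the 28 Nkx2.2-only peaks of chromosome X was raised (3.57%, Wilson interval 0.633 to 17.7), against 34.3% to 58.6% on the autosomes (odds ratio 0.0454, 0.00111 to 0.276, adjusted exact p = 5.05e-05). No correction for the number of chromosome copies was made here.

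**Figure D5:**
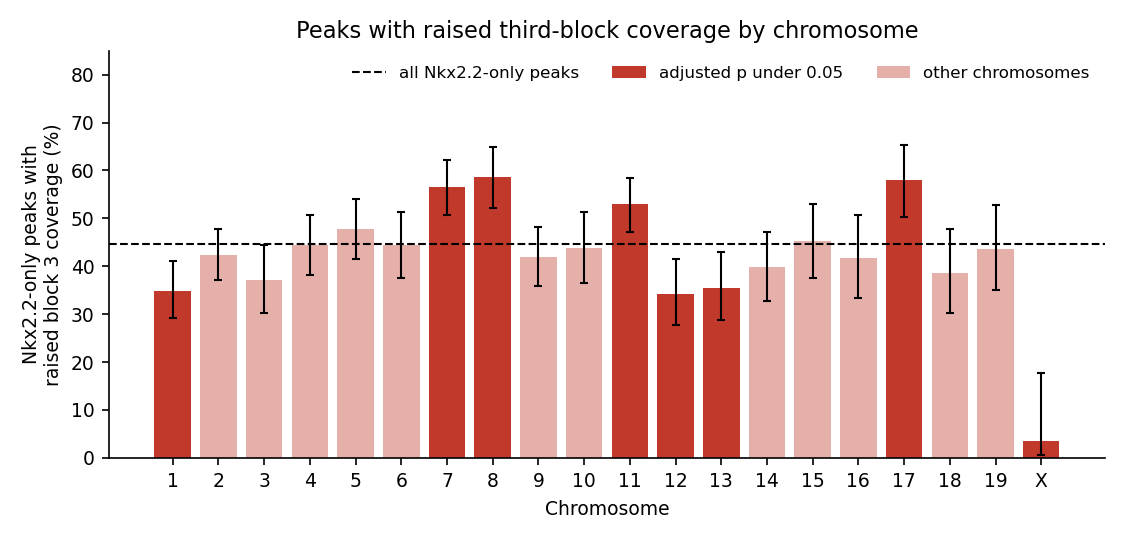
Percent of Nkx2.2-only peaks that had raised block 3 coverage (vertical axis, with 95% Wilson intervals) on each autosome and chromosome X, with the share over all of them dashed; chromosome Y, with 1 peak, is left out. Chromosomes 7, 8, 11 and 17 stand above the line and chromosomes 1, 12, 13 and X below it past the threshold.

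Most 100 kb windows with any raised peak held only 1, a count not set against other peaks here. In windows of 100 kb, 1263 held 1 raised peak, 190 held 2, 20 held 3 and 6 held 4. The 6 fullest windows began at 89200001 on chromosome 3, at 26000001 and 52100001 on chromosome 7, at 73100001 and 73300001 on chromosome 8 and at 107400001 on chromosome 9. They held no Nkx6.1 peak and no co-bound Nkx2.2 peak, while 2 of the 6 held Olig2 peaks. In the order given, they held 1, 2, 1, 1, 2 and 0 Gli3 peaks. Their other Nkx2.2-only peaks numbered 0, 1, 0, 0, 0 and 2. These windows were picked for their counts and are a description. Their Nkx6.1, Olig2, co-bound and Gli3 counts were not set against those of other windows.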

How the data were processed

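Groups follow the titles (factor, and ChIP or input). HOMER, Bowtie2 2.2.4 and mm9 appear in the submitters' processing notes, while settings, the peak caller and any pooling are not given in the sources used here. Deposited by the authors were peak positions without scores, and coverage signal in steps of 25 bp up to 2000 bp from each peak centre, scaled per library in a way the file headers do not state. Row i of a table was taken as line i of its list. This was checked on 290 pairs of Nkx2.2 peaks within 1000 bp, whose shifted profiles had a median correlation of 0.984 to 0.996 per block, and 0.142 to 0.474 with rows shuffled.

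The raised peaks, the tests and the alternatives were chosen with earlier results of these data known. Flank means 1000 to 1750 bp from the centre, which leaves out the left edge of the tables, where coverage drops. Shares were tested by Fisher's exact test (conditional odds ratios), coverage on log2(coverage + 1) by a two-sided permutation test with 100000 resamples, and p-values were adjusted by Benjamini-Hochberg within each family named, in Python 3.11.15 with SciPy 1.17.1 and statsmodels 0.14.6. Distances were between centres. The tests were tried on simulated data. Named regions were the first 5 raised peaks by each block, the first 5 with Gli3 and the last 5 by block 1, and 3 on each side of the limit. Profile shapes, windows, comparisons within the class and with co-bound peaks, and 5 alternatives (neighbours at least 600 bp away, no peaks near another Nkx2.2 peak, no sex chromosomes, and odds ratios within chromosomes and within quartiles of block 2) were added after values were seen. Distance to genes and base composition, both planned, were not analysed, since the gene table used here is for another build. For the same reason no sequence is printed.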

Additional observations from a re-analysis of the deposited data

Results flagged for a closer look

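The excess of Gli3 peaks at Nkx2.2 peaks with 1.5 units or more in block 3 differed between Nkx2.2-only and co-bound peaks by a test of the difference itself. The odds ratio was 3.38 in Nkx2.2-only peaks and 1.86 in co-bound peaks, a ratio of 1.81 (Breslow-Day chi-square test of equal odds, p = 0.00786). Gli3 met 11.5% of Nkx2.2-only and 14.4% of co-bound peaks at or above the limit, against 3.69% and 8.28% under it. Block 1 coverage also differed between these classes, with medians of 15.9 and 21.6 units in raised Nkx2.2-only and raised co-bound peaks, against 17.8 and 24.0 units under the limit, and its part was not tested.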

How the results depend on the processing

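Over 12 results and 19 alternative settings, 79 of 92 values kept their direction and their side of the threshold or, for the number of chromosomes past it, stayed within 1.5 times. The Gli3 odds ratio stayed between 2.71 (limit of 2.0) and 4.71 (limit of 1.2), that of ventral neighbours between 0.452 and 0.626, and block 3 of the Olig2 table between 0.48 and 1.08. Chromosomes past the threshold numbered 5 with a limit of 2.0 and 6 or 7 under the 5 other settings, against 8. In block 1 of the Olig2 table the difference was -0.22 with a limit of 1.2 and -0.10 with the neighbour at least 600 bp away, neither past the threshold, and 0.01 without peaks within 1000 bp of a ventral peak. In block 2 of that table it was -0.30, past the threshold, with a block 3 window of 100 bp, and turned to 0.22 without peaks within 1000 bp of a ventral peak and to 0.07 with neighbours at least 600 bp away. In block 1 of the Nkx6.1 table it turned to -0.03 with the window of 100 bp and -0.01 without the top 10% of block 3 flanks. The odds ratio of Nkx2.2 neighbours was 1.32 within 100 kb, 0.693 without peaks near another Nkx2.2 peak, 0.968 without the top 10% of flanks and 0.989 without chromosomes X and Y. The causes were not tested. With under 10 raised peaks left, the Nkx6.1 table was not tested at a limit of 2.0, away from ventral or other Nkx2.2 peaks, or with neighbours 600 bp away. No paired analysis was possible because the columns name no library, so no replicate was left out either. Unknown depth limits every coverage value.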
